A study of Rattus norvegicus with 18 samples.

Results

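The microRNA miR-802 was followed through both of its mature strands, rno-miR-802-5p and rno-miR-802-3p, written below without the species prefix. They were found by name as 2 of the 401 miRNA rows of a small RNA table from rat liver. The 18 libraries fall into 3 groups of 6. The first holds obese Zucker diabetic fatty (ZDF) rats given colesevelam and the second obese ZDF rats given vehicle. The third holds lean rats, for which the labels list no agent. All rats were 8 weeks old and all carry the strain label ZDF-Leprfa/Crl, the lean ones included, so only the group's name and its phenotype label set the lean rats apart. The labels give neither the dose and duration of colesevelam nor what the vehicle was. The stated aim was to find liver miRNAs that change with vehicle or colesevelam in ZDF rats.

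A miRNA is cut from a hairpin transcript as a duplex of a 5p and a 3p strand. Usually one strand is loaded into an Argonaute protein and the other is degraded. The loaded strand pairs with messenger RNAs through its seed, bases 2 to 8, and lowers their output. In mice, miR-802 is known to rise in the liver with obesity and to impair glucose tolerance and insulin action. It is also known in mouse pancreatic islets, where it limits insulin secretion. ZDF rats carry a defect of the leptin receptor and become obese and insulin resistant. Colesevelam is a polymer that traps bile acids in the intestine, which makes the liver convert more cholesterol to bile acids, and it lowers blood glucose in type 2 diabetes.

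The mature strands are shown because all counts below rest on reads that match them, and because their seeds, in capitals, define which messages each can pair with. They are given 5′ to 3′ as the deposited table lists them, in DNA letters.
miR-802-5p: tCAGTAACaaagattcatcct
miR-802-3p: aCGGAGAGtctttgtcactcagt
The 5p strand has 21 bases, of which 7 are G or C (33.3%). The 3p strand has 23 bases, of which 11 are G or C (47.8%). Neither seed was found elsewhere: 0 of the other rows of the table and 0 of the 724 mature rat miRNAs in the RefSeq table share the seed of either strand. The RefSeq table holds the miR-802 hairpin without its mature strands. It is thus incomplete and cannot show that a seed occurs nowhere else.

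The hairpin is shown to place both strands within it. It is the RefSeq entry of assembly GRCr8, chr11:46112362-46112457 on the plus strand, 96 bases, in RNA letters, with the mature strands in capitals.
miR-802 hairpin: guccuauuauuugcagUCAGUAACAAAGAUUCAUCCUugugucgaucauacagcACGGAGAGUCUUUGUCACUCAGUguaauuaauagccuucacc
The 5p strand spans bases 17 to 37 and the 3p strand bases 55 to 77, with 17 bases of loop between them. In GRCr8 the hairpin lies within the long non-coding RNA gene LOC134480977. The nearest protein-coding gene before it on the chromosome is Runx1, and RGD1562683 and Setd4 come after it. The deposited table places the 5p strand at positions 37163131 to 37163151 and the 3p strand at 37163169 to 37163191 of chromosome 11, plus strand, in a build that is not given in the sources used here.

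Depth limited the precision of every value. Library totals were 32936 to 122880 counts with colesevelam, 37909 to 147314 with vehicle and 110353 to 881450 in lean rats. Levels below are CPM, which scale each library's counts to the same total with TMM factors. Intervals of single libraries cover counting error only. The labels do not say that each library is a separate animal, and 5 pairs of libraries within groups share a number in their descriptions. The p-values therefore speak of the spread among libraries, part of which may be technical. The tissue label was checked against 8 hepatocyte miRNAs. Their summed level, per library total, was 276856 to 406198 CPM with colesevelam, 232088 to 356443 CPM with vehicle and 330476 to 464026 CPM in lean livers. Most of it was miR-192-5p, a miRNA of liver, gut and kidney. That row held 100699 of 139977 summed counts with colesevelam, 86272 of 125491 with vehicle and 564114 of 783743 in lean livers.

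miR-802-5p was measured at similar levels in the 3 groups, and no comparison passed the test. With colesevelam its level was 359.8 CPM in the lowest, 776 CPM at the median and 966 CPM in the highest library. With vehicle it was 418, 836 and 1241 CPM in the same order. In lean livers it was 506, 880.3 and 1350.1 CPM. The ranges overlapped over most of their length, with a colesevelam library lowest and a lean one highest of the 18. The counts behind these levels were 19 to 91 with colesevelam (median 36.5), 17 to 190 with vehicle (median 51.5) and 97 to 717 in lean livers (median 172). Means were 749 ± 214 CPM with colesevelam, 817 ± 375 CPM with vehicle and 865 ± 293 CPM in lean livers (SD, n = 6 each). In that order no neighbours differed beyond their spread.

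**Figure D1:**
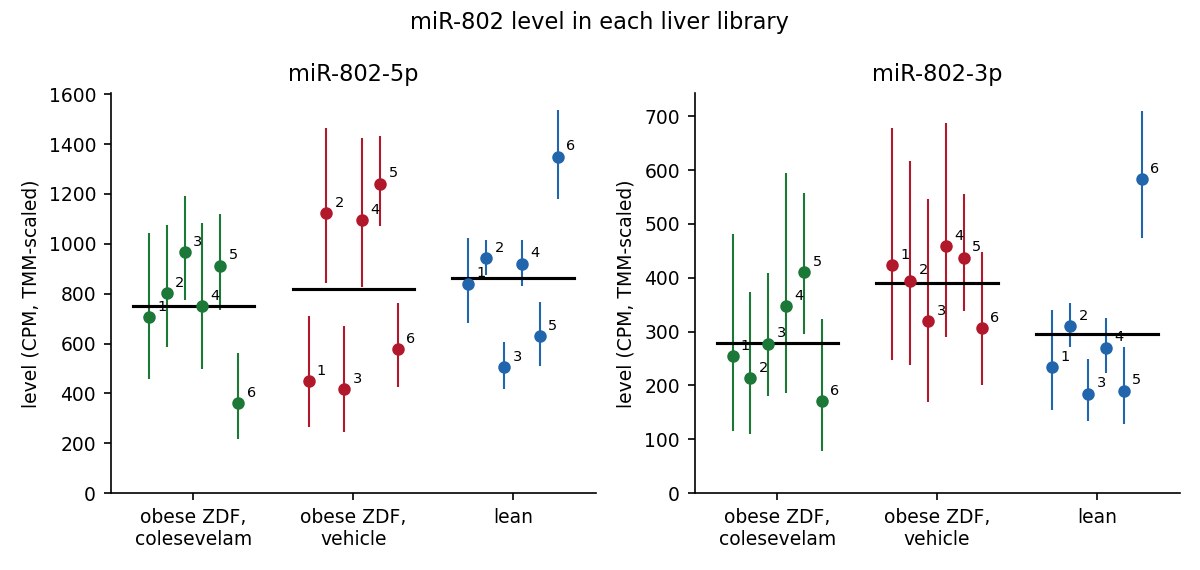
Level of miR-802-5p (left) and miR-802-3p (right) in CPM, TMM-scaled, for each of 6 libraries per group, with the replicate number beside each point. Points are libraries, vertical lines exact Poisson 95% intervals of the count, and horizontal lines group means. For the 5p strand 3 vehicle libraries lie at 418 to 577 CPM and the other 3 at 1095 to 1241 CPM.

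Vehicle livers were set against lean livers to ask what differs with obesity. Lean rats have no agent listed and mostly deeper libraries. Obesity, dosing and depth thus differ together in any comparison with lean livers and cannot be told apart. The log2 fold change of miR-802-5p was −0.07 ± 0.31 (SE), with a 95% interval of −0.71 to 0.57 (edgeR quasi-likelihood test, adjusted p = 0.976, BH over 112 tested rows). In linear terms the interval reaches from a 0.612-fold to a 1.49-fold level in vehicle livers. Of the other tested rows, 91 had a larger fold change in either direction. Neither strand of miR-802 was called, 0 of 2, in a comparison where 7 of 112 rows were (6.25%). Leaving out vehicle replicate 1, vehicle replicate 3 or lean replicate 6 turned the sign of the 5p difference (0.057, 0.030 and 0.10), without a call.

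Colesevelam livers were set against vehicle livers to ask what differs with the drug, with the same vehicle libraries as above. The log2 fold change of miR-802-5p was −0.13 ± 0.32, with an interval of −0.79 to 0.53 (edgeR adjusted p = 0.914). That interval allows levels of 0.58-fold to 1.44-fold with colesevelam. Neither strand was called, beside 12 of 112 rows (10.7%). The sign of the 5p difference turned, without a call, when vehicle replicate 2, vehicle replicate 5 or colesevelam replicate 6 was left out.

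Colesevelam livers were also set against lean livers. Here the log2 fold change of miR-802-5p was −0.20 ± 0.31, with an interval of −0.84 to 0.45 (edgeR adjusted p = 0.703), or levels of 0.558-fold to 1.36-fold with colesevelam. Neither strand was called, beside 24 of 112 rows (21.4%). In the main fit neither strand had an unadjusted p under 0.05 in any comparison. Such a p was found for 21 rows in vehicle against lean livers, 24 in colesevelam against vehicle livers and 44 in colesevelam against lean livers. DESeq2 and limma-voom, run on the same counts, also called 0 of 2. The libraries of the groups overlapped for both strands in every comparison. They stood apart for 3 rows (2.68%) in vehicle against lean livers, for 6 (5.36%) in colesevelam against vehicle livers and for 9 (8.04%) in colesevelam against lean livers.

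The strand with fewer counts, miR-802-3p, was highest on average with vehicle, but not past the test's threshold. With colesevelam its level was 170.4 CPM in the lowest, 266 CPM at the median and 411 CPM in the highest library. With vehicle it was 306, 409 and 458 CPM. In lean livers it was 185, 252 and 584 CPM. The vehicle libraries lay close together and above most others, yet the groups overlapped: lean replicates 2 and 6 and colesevelam replicates 4 and 5 were above the lowest vehicle library. The counts were small, 9 to 41 with colesevelam, 13 to 67 with vehicle and 27 to 236 in lean livers.

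Means of miR-802-3p were 279 ± 88.1 CPM with colesevelam, 390.0 ± 63.3 CPM with vehicle and 296 ± 149 CPM in lean livers (SD, n = 6 each). In vehicle against lean livers its log2 fold change was 0.40 ± 0.29 (interval −0.19 to 0.99, edgeR adjusted p = 0.492). Without lean replicate 6, the library with the highest level of this strand, the value was 0.70 (edgeR unadjusted p = 0.00921, adjusted p = 0.0938). Without lean replicate 5 it was 0.24 (edgeR adjusted p = 0.722). In colesevelam against vehicle livers it was −0.47 ± 0.30 (interval −1.10 to 0.16, edgeR adjusted p = 0.415), and −0.28 without colesevelam replicate 6, its lowest library (edgeR adjusted p = 0.673). The unadjusted edgeR p of that comparison was 0.137, but 0.0487 with library totals only and 0.0450 with only the 2 groups compared. The adjusted p was then 0.202 and 0.186. In colesevelam against lean livers the log2 fold change of miR-802-3p was −0.07 ± 0.29 (interval −0.68 to 0.54, edgeR adjusted p = 0.880). The sign of this last value turned in 6 of the 18 fits that left out 1 library.

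**Figure D2:**
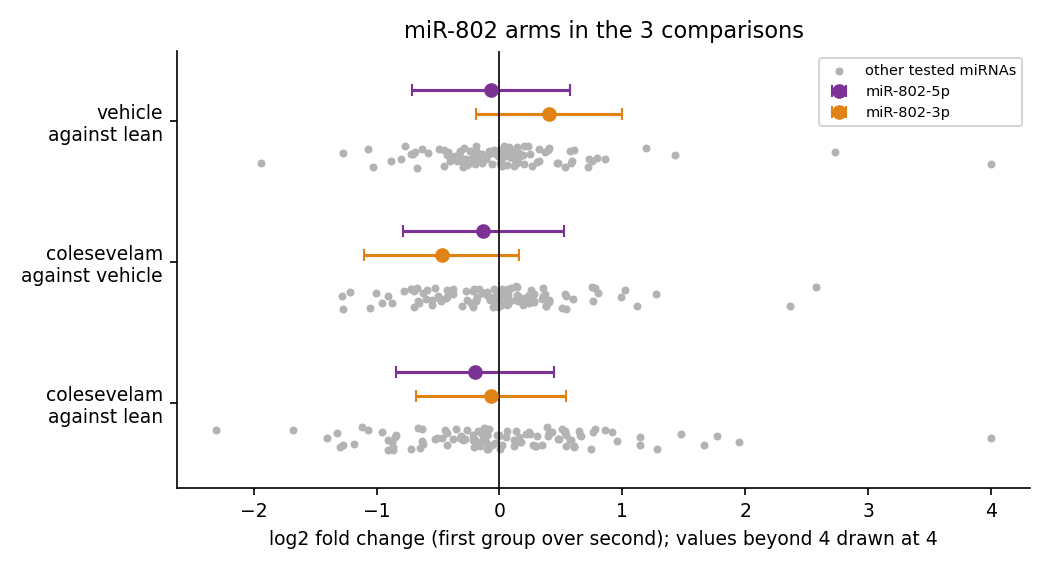
Log2 fold changes of miR-802-5p and miR-802-3p in the 3 comparisons, with 95% intervals from edgeR (coloured points and bars), above the other tested miRNAs of the same comparison (grey points, spread vertically at random; values beyond 4 drawn at 4). All 6 intervals include 0, and both strands lie among the bulk of the other miRNAs.

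The authors' own comparisons give other values for miR-802, which move with the scaling of the libraries. In the authors' deposited table, by DESeq2, miR-802-5p has a log2 fold change of −2.21 in vehicle against lean livers (adjusted p = 0.00133) and of −2.87 in colesevelam against lean livers (adjusted p = 1.31e-06). Of all rows with an adjusted p in the authors' deposited table, 98.3% are under 0.05 in each of these comparisons, and the median log2 fold change over all rows is −2.41 and −2.87. In the authors' deposited table miR-802-5p thus lies 0.21 and 0.01 above the median row. For miR-802-3p the authors' deposited table gives −1.87 and −2.71, which is 0.54 and 0.16 above those medians. In colesevelam against vehicle livers the authors' deposited table has −0.66 for the 5p and −0.84 for the 3p strand (DESeq2 adjusted p = 0.594 and 0.33), beside a median of −0.36 and 6.3% of rows under 0.05.

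The size factors behind those values were recovered from the mean scaled counts in the same table. In vehicle against lean livers all 12 lay between 0.752 and 1.24, while library totals differed 26.8-fold over the 18 libraries and were mostly larger in lean livers. With the authors' factors in the edgeR fit, miR-802-5p came to −2.21 in vehicle against lean livers (adjusted p = 0.000293) and to −2.86 in colesevelam against lean livers (adjusted p = 9.53e-06). Of all tested rows 98.2% and 97.3% were then called in these comparisons, and 1.79% in colesevelam against vehicle livers. Relative to the median row of the same fit, miR-802-5p was at 0.18 in vehicle against lean and at −0.11 in colesevelam against lean livers. The lower values of miR-802 in obese livers under these factors are therefore shared by nearly all rows tested. A difference in total miRNA cannot be told apart from depth in these counts, nor can fewer cells of a type be told apart from less RNA per cell.

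The share of the 3p strand among all miR-802 counts needs no scaling between libraries. Over all libraries 821 of 3141 counts came from the 3p strand, 26.1% (Wilson 95% interval 24.6 to 27.7%), or 2.83 counts of the 5p strand for each count of the 3p strand. The lesser strand of most other precursors took a far smaller share. Among 94 precursors with both strands listed and at least 100 summed counts, the median share of the lesser strand was 2.19%, and miR-802 ranked at 10 from the highest. Lean libraries gave 2189 of the 3141 counts. With each library weighted equally the share of miR-802 was 28.5% at rank 9, and from the summed counts of each group it ranked at 7 with colesevelam, 9 with vehicle and 10 in lean livers. Its neighbours by the counts of all libraries, miR-423 and miR-322, had lesser-strand shares of 26.3% and 25.6%.

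The mean 3p share was highest with vehicle, and no difference between groups passed after adjustment. With colesevelam it was 21.1% in the lowest, 28.8% at the median and 32.1% in the highest library. With vehicle it was 26.0, 32.1 and 48.6%. In lean livers it was 21.8, 24.0 and 30.2%. All 6 vehicle libraries were above the lean median, and 3 of them lay within the lean range. The 2 highest, vehicle replicates 1 and 3, rested on 35 and 30 counts, with shares of 48.6% (Wilson interval 33.0 to 64.4%) and 43.3% (27.4 to 60.8%).

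The mean 3p share was 34.7 ± 9.42% with vehicle and 24.9 ± 3.12% in lean livers, a difference of 9.79 percentage points (n = 6 each, two-sided exact permutation p = 0.0281, BH-adjusted over 9 tests 0.253). The unadjusted p was over 0.05 in 6 of the 12 tests that left out 1 library, among them that without vehicle replicate 1 (7.01 points, exact permutation p = 0.0563). With libraries of one label number summed the difference was 7.69 points (exact permutation p = 0.127). Summed over libraries, where each count weighs the same, the share was 30.1% with vehicle (26.4 to 34.1%) and 24.99% in lean livers (23.2 to 26.8%), a difference of 5.12 points. With colesevelam the mean share was 27.5 ± 4.93%, a difference of −7.23 points from vehicle (exact permutation p = 0.134, adjusted 0.403) and of 2.56 points from lean livers (exact permutation p = 0.299, adjusted 0.577). The first was −4.46 points without vehicle replicate 1 and the second 1.62 points without colesevelam replicate 6. The summed share with colesevelam was 27.0% (22.9 to 31.5%).

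**Figure D3:**
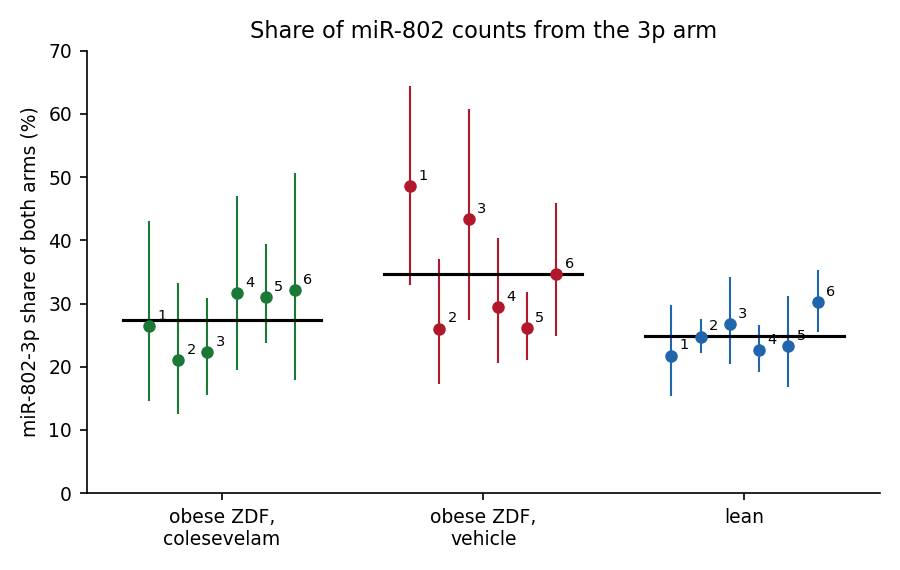
Share of miR-802 counts from the 3p strand in percent, for each of 6 libraries per group, with the replicate number beside each point. Points are libraries, vertical lines Wilson 95% intervals and horizontal lines group means (27.5% with colesevelam, 34.7% with vehicle, 24.9% lean). The 2 highest libraries, vehicle replicates 1 and 3, rest on 35 and 30 counts and have wide intervals.

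Relative to abundant hepatocyte miRNAs, miR-802-5p also passed no test. miR-122-5p is the best known hepatocyte miRNA and a regulator of cholesterol and fatty acid metabolism. Ratios of counts were taken with 0.5 added to each count. On that scale miR-122-5p had 34.3 to 172 counts for each count of miR-802-5p with colesevelam (median 67.2), 17.4 to 110 with vehicle (median 61.6) and 16.0 to 161 in lean livers (median 51.7). The ratio varied 10.8-fold over the 18 libraries and 10.03-fold among the lean ones alone. The mean log2 ratio of miR-802-5p to miR-122-5p differed by −0.05 in vehicle against lean livers (exact permutation p = 0.937, also after BH adjustment over 9 tests). It differed by −0.43 in colesevelam against vehicle livers (exact permutation p = 0.463) and by −0.49 in colesevelam against lean livers (exact permutation p = 0.485), both with an adjusted p of 0.623. With 1 library left out it ran from −0.67 to −0.14 in colesevelam against vehicle livers and from −0.84 to −0.18 in colesevelam against lean livers. The sign of the value in vehicle against lean livers turned in 6 of the 12 tests that left out 1 library.

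Against miR-192-5p, the most abundant miRNA here and one of liver, gut and kidney, the ratio varied less. Again with 0.5 added to each count, miR-192-5p had 224 to 883 counts for each count of miR-802-5p with colesevelam (median 252), 202 to 328 with vehicle (median 242) and 239 to 393 in lean livers (median 322). In 5 of 6 vehicle libraries miR-802-5p was higher relative to miR-192-5p than the lean median. The mean log2 ratio of miR-802-5p to miR-192-5p differed by 0.30 in vehicle against lean livers (exact permutation p = 0.0758, adjusted 0.341). It differed by −0.39 in colesevelam against vehicle livers (exact permutation p = 0.320, adjusted 0.577) and by −0.09 in colesevelam against lean livers (exact permutation p = 0.861, adjusted 0.937). Without colesevelam replicate 6, the library with the ratio of 883, these values were −0.10 and 0.20.

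By level, miR-802-5p stood in the middle of the tested miRNAs. Its mean over the 18 libraries, 810.3 CPM, was at rank 56 of 112. The next row above was miR-142-5p, a leukocyte miRNA, at 917 CPM, and the next below miR-30e-3p at 799.9 CPM. miR-802-3p was at rank 82 with 322 CPM, between miR-15b-5p at 336 CPM and let-7e-5p at 319.9 CPM. For comparison miR-192-5p, at rank 1, averaged 237256 CPM, and miR-122-5p, at rank 7, averaged 44198 CPM. Mature miRNAs have nearly the same length, so counts were not divided by it, and counts of different miRNAs also carry the capture efficiency of each sequence, which was not measured.

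The spread of miR-802-5p within groups was wider than the differences between their means. Its SD of log2 CPM within groups was 0.57, at rank 40 of 112 rows, whose median was 0.50. That of miR-802-3p was 0.44, at rank 69. The coefficient of variation of the 5p level was 28.6% with colesevelam, 45.9% with vehicle and 33.9% in lean livers. Vehicle replicates 1, 3 and 6 had 449, 418 and 577 CPM, and vehicle replicates 2, 4 and 5 had 1122, 1095 and 1241 CPM. For the 3p strand the same libraries had 424, 319.7 and 306 CPM, and 395, 458 and 438 CPM. The libraries are set out in this order for their 5p levels alone. Their totals were 39373, 37909 and 71565 counts for vehicle replicates 1, 3 and 6. For vehicle replicates 2, 4 and 5 they were 47519, 55340 and 147314 counts, so the totals overlapped. The part of depth in these levels was not tested.

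Libraries of 1 group that share a number in their descriptions give a further view of the spread. With colesevelam such pairs had miR-802-5p levels of 803 and 966 CPM and of 749 and 912 CPM. In lean livers they had 840.2 and 942 CPM, and 920.4 and 628 CPM. The second library of a pair was thus at 1.12 to 1.22 times the first in 3 pairs and at 0.683 times in 1. The pair of vehicle replicates 3 and 4 had 418 and 1095 CPM, a ratio of 2.62, and 3p shares of 43.3% and 29.5%. What the number marks is not given in the sources used here. With each pair summed to 1 library, miR-802 was still not called in any comparison.

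The level of miR-802-5p moved with a measure of base composition. For each library a slope was fitted, across the tested miRNAs other than miR-802, of their log2 CPM relative to their own mean on their GC content, and is given per 10 percentage points of GC. After group means were subtracted, miR-802-5p, a GC-poor strand, was lower where this slope was higher (18 libraries, Pearson r = −0.67, permutation p = 0.00291, BH-adjusted over 3 relations 0.00873). Spearman's rho was −0.64 (permutation p = 0.00466, adjusted 0.0140), and r was −0.66 without the 2 libraries farthest from the median slope. Within groups r was −0.59 with colesevelam, −0.69 with vehicle and −0.73 in lean livers. The slope was built from the other miRNAs of the same libraries under the same scaling. Rows low in GC tend to run against it by construction, so these p-values test no trait particular to miR-802-5p. Vehicle replicates 1, 3 and 6, with the lower 5p levels of that group, had slopes of 0.42, 0.14 and 0.39. Vehicle replicates 2, 4 and 5 had slopes of 0.17, −0.31 and −0.08, so the slopes of these libraries overlapped.

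For miR-802-3p the relation to the GC slope had r = −0.53 (permutation p = 0.0234, adjusted 0.0351) and rho = −0.42 (permutation p = 0.0821, adjusted 0.123), and r = −0.56 without the 2 farthest libraries. Within groups r was −0.34 with colesevelam, −0.57 with vehicle and −0.72 in lean livers. The level of this strand also shares libraries and scaling with the slope. For the 3p share r was 0.36 (permutation p = 0.149) and rho 0.35 (permutation p = 0.152), with r = 0.28 without the 2 farthest libraries. Its r was 0.39 with colesevelam, 0.60 with vehicle and −0.36 in lean livers, so the sign was not the same in the 3 groups. The slope itself averaged −0.05 ± 0.24 with colesevelam, 0.12 ± 0.28 with vehicle and −0.07 ± 0.25 in lean livers (SD, n = 6 each). Its exact permutation p was 0.240 in vehicle against lean livers, 0.242 in colesevelam against vehicle livers and 0.937 in colesevelam against lean livers. The part of this slope in the levels of miR-802 was not tested.

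The 5 miRNAs whose levels were most like that of miR-802-5p were also low in GC, with contents of 33.3 to 40.9%. Likeness was taken as Pearson r of log2 CPM over the 18 libraries after subtracting group means, across the other tested rows, whose median r was −0.10. The highest were miR-3559-5p (r = 0.85), miR-30e-5p (r = 0.83), miR-101a-3p (r = 0.81), miR-21-5p (r = 0.79) and miR-101b-3p (r = 0.76). Other rows low in GC were not alike, among them miR-340-5p (27.3% GC, r = −0.38), let-7a-5p (36.4%, r = −0.56) and let-7e-5p (40.9%, r = −0.68). miR-101a-3p and miR-101b-3p are near-identical in sequence, so reads could be split between them and their values are uncertain. All these values share library depth and scaling, so they are descriptions and carry no test.

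The other strand of the same hairpin, miR-802-3p, came at rank 11 in that order (r = 0.69), and miR-192-5p at rank 22 (r = 0.55). miR-122-5p was near the opposite end, at rank 106 (r = −0.71), with a GC content of 45.5%. The lowest was miR-191a-5p (r = −0.85). Across the miRNAs the likeness to miR-802-5p itself varied with GC content (r = −0.49, rho = −0.53, across genes, which are not independent replicates). Seen from miR-802-3p, the most like were miR-19b-3p (r = 0.78), miR-195-5p (r = 0.77), miR-3559-5p (r = 0.72), miR-10a-5p (r = 0.72) and miR-3068-3p (r = 0.70), and miR-122-5p was again at −0.71.

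**Figure D4:**
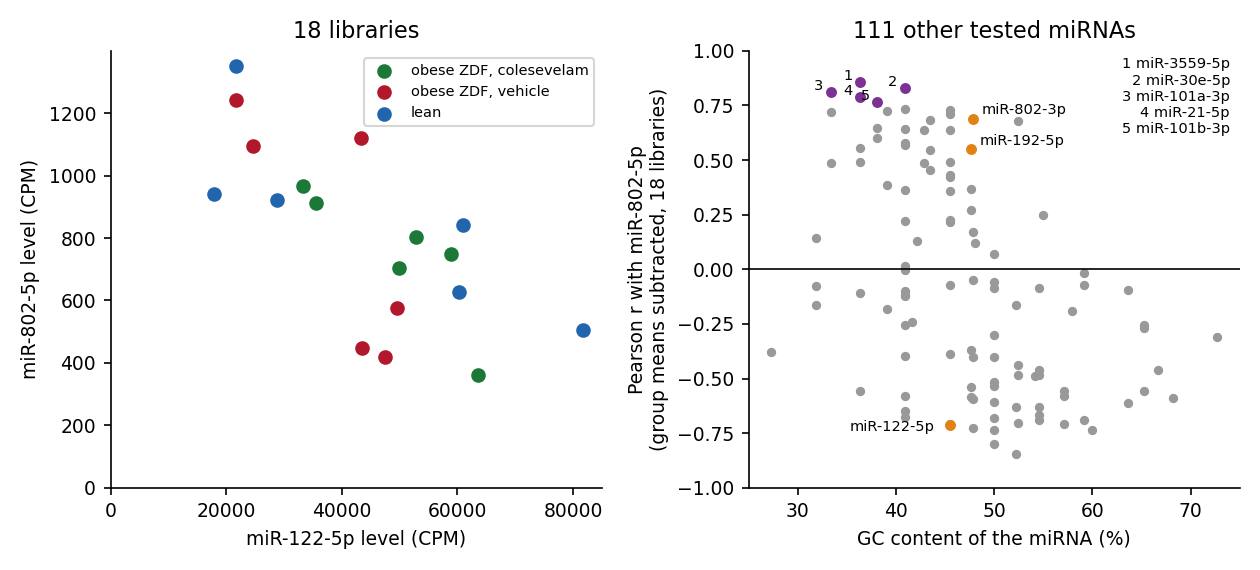
Left, level of miR-802-5p against that of miR-122-5p in CPM, 1 point per library, coloured by group; after subtracting group means their log2 levels had r = −0.71. Right, Pearson r of each other tested miRNA with miR-802-5p (log2 CPM, group means subtracted, 18 libraries) against the GC content of that miRNA in percent, with the 5 highest numbered and miR-802-3p (0.69), miR-192-5p (0.55) and miR-122-5p (−0.71) named; high r is found mostly at low GC.

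Other miRNAs linked to obesity, insulin action or glucose handling were read beside miR-802. Of 23 listed, 17 had counts enough to test. In vehicle against lean livers 0 rose and 0 fell, beside the 6.25% of all tested rows called there (median log2 fold change 0.02, beside 0.0051 over all tested rows). There 1 member had an unadjusted p under 0.05, beside 21 of all 112 tested rows. DESeq2 called 1 member, miR-375-3p, beside 8 of the 112 rows. In colesevelam against vehicle livers 0 rose and 0 fell, beside the 10.7% of all tested rows called there (median 0.13, beside −0.0088). There 0 members had an unadjusted p under 0.05, beside 24 of the 112 rows. DESeq2 and limma-voom called 0 members, beside 13 and 10 of the 112 rows. In colesevelam against lean livers 0 rose and 1 of 17 fell, beside the 21.4% of all tested rows called there (median 0.14, beside −0.08). In that comparison 3 of the 17 members had an unadjusted p under 0.05, beside 44 of the 112 rows. DESeq2 called 2 members and limma-voom 0. The 6 without enough counts were miR-29b-3p, miR-33-5p, miR-34a-5p, miR-221-3p, miR-222-3p and miR-223-3p.

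The member that fell was miR-375-3p, the leading miRNA of pancreatic islets and known there as a brake on insulin secretion. It averaged 579.9 ± 208 CPM with colesevelam and 1214 ± 465 CPM in lean livers (SD, n = 6 each), and its log2 fold change was −1.07 ± 0.37 (edgeR adjusted p = 0.0433). The call was lost in 10 of the 18 fits that left out 1 library, over which the value ran from −1.27 to −0.90. It was also lost in 5 of 13 other settings, among them libraries of one label number summed (edgeR adjusted p = 0.176), upper-quartile factors (0.107), the 50 CPM filter (0.0737) and limma-voom (0.0839). The median fold change of the list had the opposite sign. With vehicle miR-375-3p averaged 588 ± 322 CPM, or −1.07 ± 0.37 against lean livers (edgeR adjusted p = 0.110).

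Of the other listed members, miR-103-3p and miR-107-3p are known in mice to lower insulin sensitivity through caveolin-1. miR-143-3p is known to impair insulin action in the liver of obese mice, miR-29a-3p to dampen insulin signalling and miR-26a-5p to improve insulin sensitivity. None of these 5 passed the edgeR test. Their log2 fold changes ran from 0.02 (miR-26a-5p) to 0.40 (miR-103-3p) in vehicle against lean livers and from −0.19 (miR-107-3p) to 0.20 (miR-26a-5p) in colesevelam against vehicle livers. In colesevelam against lean livers they ran from 0.06 (miR-107-3p) to 0.53 ± 0.20 (miR-103-3p), which was nearest to a call (edgeR adjusted p = 0.0634). With the authors' size factors the same value of miR-103-3p was −2.20, and it passed the threshold with DESeq2 and with a 50 CPM filter. With 1 library left out it ran from 0.44 to 0.64 (edgeR adjusted p from 0.0188 to 0.105), so it also passed in some of those fits.

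Since miR-802 is also a pancreatic miRNA, the pancreas and islet list was read beside it. Of its 5 members 4 were in the table and 1, miR-375-3p, was tested. The pancreas-defining miR-217-5p had 0 counts summed over the colesevelam libraries, 4 over the vehicle and 3 over the lean libraries, and miR-216a-5p had 1, 2 and 3. The summed list, per library total, was 425 to 815 CPM with colesevelam, 235 to 1143 CPM with vehicle and 339 to 1693 CPM in lean livers. Nearly all of it was miR-375-3p, with 207 summed counts over the colesevelam, 208 over the vehicle and 2410 over the lean libraries.

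Markers of other cells were counted in the same way. Of the 7 tested hepatocyte rows 0 were called in vehicle against lean livers (0 by an unadjusted p under 0.05, by DESeq2 or by limma-voom), 1 fell in colesevelam against vehicle livers and 2 fell in colesevelam against lean livers, where 10.7% and 21.4% of all tested rows were called. Of these hepatocyte rows limma-voom called 0 and 1. The 2 in colesevelam against lean livers included miR-101a-3p (−0.85 ± 0.29, edgeR adjusted p = 0.0380), at rank 3 of likeness to miR-802-5p, whose call was lost in 11 of the 18 fits that left out 1 library. That call was also lost in 4 of 13 other settings, among them libraries of one label number summed (edgeR adjusted p = 0.0692), the 50 CPM filter (0.0970) and limma-voom (0.0714). Leukocyte markers summed to 794 to 1253 CPM with colesevelam, 939.6 to 1831 CPM with vehicle and 1673 to 3246 CPM in lean livers. The untested miR-155-5p had 7, 1 and 12 summed counts with colesevelam, with vehicle and in lean livers. Mean library totals were 66278, 66503 and 328766 counts. Relative to these totals miR-155-5p was highest with colesevelam, unlike the untested miR-142-3p and miR-223-3p, which were highest in lean livers. Both tested rows, miR-142-5p and miR-150-5p, fell in colesevelam against lean livers by edgeR, of which limma-voom called 1. miR-142-5p also fell in vehicle against lean livers (log2 fold change −1.27, edgeR adjusted p = 0.0328) and miR-150-5p in colesevelam against vehicle livers (−1.27, edgeR adjusted p = 0.0340), and limma-voom called neither. The single tested bile duct marker, miR-200b-3p, fell in vehicle against lean and in colesevelam against lean livers. In vehicle against lean livers 6.25% of all tested rows were called. The bile duct list summed to 147 to 243 CPM with colesevelam, 76.2 to 253 CPM with vehicle and 397 to 629.9 CPM in lean livers. Its untested member miR-200c-3p had 11, 5 and 20 summed counts in that order. Relative to the totals it was lowest in lean livers, unlike miR-200a-3p, miR-141-3p and miR-429. The 3 tested stromal rows, the 2 endothelial rows and the single erythroid row had 0 calls in the 3 comparisons by edgeR. Of all tested rows 6.25, 10.7 and 21.4% were called in vehicle against lean, colesevelam against vehicle and colesevelam against lean livers. No muscle row was tested. An unadjusted p under 0.05 was found for 1 endothelial row in vehicle against lean livers and 1 stromal row in each comparison with colesevelam. Over all 112 tested rows such a p was found for 21, 24 and 44 in the order above. DESeq2 and limma-voom called miR-199a-3p, a stromal row, in colesevelam against lean livers. The part of these markers in the level of miR-802 was not tested.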

How the data were processed

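Small RNA counts of 18 rat liver libraries were used. Per the labels, RNA of flash-frozen livers was isolated with a Norgen total RNA kit and made into libraries with an Illumina TruSeq RNA kit; no selection of small RNA is described. The deposited table holds the authors' estimated counts, unscaled, of 401 mature miRNAs. In 42 rows 297 values are not whole, 0 of them of miR-802. The deposited table also holds the authors' log2 fold changes, their p-values (raw and adjusted) and, per the file headers, the mean scaled count of each row over the libraries of a comparison. Bowtie 1.1.2 and DESeq2 1.18.1 are named in the submitters' processing notes. Build, annotation, trimming and counting tool: not given in the sources used here.

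Counts were rounded to the nearest whole number. filterByExpr (minimum count 10, minimum total 15) left 112 rows holding 99.5% of counts. After TMM scaling (factors 0.814 to 1.19), one fit over the 3 groups was tested with the robust quasi-likelihood F test of edgeR 4.0.16 (R 4.3.3). P-values were BH-adjusted over all tested rows and called under 0.05. The fit's biological coefficient of variation was 36.2%. Shares and ratios within libraries (pseudocount 0.5 for log2 ratios) went into two-sided exact permutation tests of 6 against 6, whose smallest possible p is 0.00216, BH-adjusted over 9 tests. Correlations with the GC slope used 100000 permutations. Scripts were tested on simulated data. Sequences of the hairpin and neighbouring genes are from RefSeq GRCr8. Intervals of counts and shares cover counting error only, since reads lack molecular identifiers and are no independent molecules.

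Named miRNAs were both strands, miR-122-5p and miR-192-5p, the 5 rows most like each strand, the rows next to them in level, called members of the insulin list, 5 of its members fixed by name, and called or defining members of marker lists. miR-199a-3p, miR-423, miR-322, miR-191a-5p, miR-340-5p, let-7a-5p and let-7e-5p were named after their values were seen. The same holds for the untested leukocyte and bile duct members. The members and lists were chosen with earlier results of these data known. Alternatives were other scaling factors (RLE, upper quartile, library totals, the authors'), other filters, DESeq2 1.42.0, limma-voom (limma 3.58.1), counts rounded down, and leaving out libraries. The other weightings of libraries in the rank of lesser-strand shares were chosen after seeing the data. Libraries of different groups with the same replicate number did not deviate together (6 of 18 correlations over 0.1, range −0.59 to 0.56). Replicate numbers, which are not the numbers in the descriptions, were therefore not taken as pairs.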

Additional observations from a re-analysis of the deposited data

Results flagged for a closer look

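The level of miR-802-3p in lean replicate 6 was 584 CPM, the highest of the 6 lean libraries, and the next was at 310.2 CPM. The gap was 0.686 of the range of the group, above Dixon's 95% critical value for 6 samples. The same library also had the highest miR-802-5p level of the lean group, 1350.1 CPM, and the highest lean 3p share, 30.2%. Chance alone singles out about 1 in 20 groups by this measure, and 15 combinations of a measure and a group were examined. Without this library the log2 fold change of miR-802-3p was 0.70 in vehicle against lean livers (edgeR adjusted p = 0.0938) and 0.23 in colesevelam against lean livers (edgeR adjusted p = 0.588).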

How the results depend on the processing

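No alternative made a call of miR-802 except the authors' size factors, with which miR-802-5p was −2.21 in vehicle against lean and −2.86 in colesevelam against lean livers, miR-802-3p was −1.87 and −2.70, miR-103-3p was −2.20 in colesevelam against lean livers, and 110, 2 and 109 rows were called in vehicle against lean, colesevelam against vehicle and colesevelam against lean livers. Over 12 other settings miR-802-5p ran from −0.15 to −0.01, from −0.27 to 0.0054 (the 50 CPM filter, opposite in sign) and from −0.37 to −0.02 in those comparisons. miR-802-3p in colesevelam against lean livers turned sign with upper-quartile factors (0.045), the 50 CPM filter (0.10) and limma-voom (0.012). The count of rows called in colesevelam against vehicle livers, 12, was 6 with upper-quartile factors and 7 without a filter, with libraries of one label number summed and with the replicate block. The 3p share from summed counts differed by 5.12 points in vehicle against lean livers. The causes of these shifts were not tested.

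Leaving out 1 library, miR-802-5p ran from −0.24 to 0.10 in vehicle against lean, from −0.24 to 0.070 in colesevelam against vehicle and from −0.33 to −0.02 in colesevelam against lean livers, and miR-802-3p from −0.25 to 0.23 in colesevelam against lean livers. The log2 ratio of miR-802-5p to miR-122-5p ran from −0.41 to 0.25 in vehicle against lean livers, and that to miR-192-5p from −0.19 to 0.20 in colesevelam against lean livers. Rows called ran from 5 to 8, from 7 (without vehicle replicate 6) to 14 and from 17 to 32 in the 3 comparisons. With the replicate block miR-802-5p was at −0.15, −0.04 and −0.19 in the same order (edgeR adjusted p = 0.893, 0.947 and 0.738) and remained uncalled; in colesevelam against lean livers miR-375-3p and miR-101a-3p were then not called (edgeR adjusted p = 0.113 and 0.0802). Library totals as low as 32936 counts, with 9 counts of miR-802-3p in the lowest library, limit what could be seen.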
